A study of Mus musculus with 8 samples.

Results

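Collagen genes were examined in the hearts of mice with and without the histone deacetylase HDAC3. Membership went by name alone: every gene symbol in the platform's gene table made of Col, a number, the letter a and a number was taken, and where a gene had more than 1 transcript cluster (the array's gene-level probe set) the brightest was kept. This gave 44 collagen genes among the 19933 genes with a cluster of their own, and each of the 44 was measured. Hearts came from male C57BL/6 mice aged 6 weeks and kept on normal chow, 4 wild type (WT) and 4 HDAC3-deficient (KO), with 1 Affymetrix Mouse Gene 1.0 ST array per mouse. The design text calls the deficient line MCH3-KO and does not spell the abbreviation out, and neither a promoter nor a cell type for the deletion is given there or in the labels. Both groups share strain, sex, age and diet, and no further allele or agent is listed for either.

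Collagens are secreted proteins in which 3 chains wind into a triple helix. Fibrillar collagens assemble into the cable-like fibrils that give heart tissue its tensile strength, collagen IV forms the sheet-like network of basement membranes around muscle cells and vessels, and other collagens decorate fibrils, link them to cells, form finer networks or sit in the cell membrane. In the heart the fibrillar chains are made mainly by fibroblasts, whereas collagen IV is also made by endothelial and mural cells and cardiomyocytes. The members fell into 11 fibrillar genes, 6 collagen IV genes (the basement membrane class) and 27 others. Of the others, 9 encode fibril-associated collagens, 6 collagen VI chains, 3 short-chain network collagens, 4 membrane-spanning collagens, 2 multiplexins of the basement membrane zone, 1 the anchoring fibril collagen, and 2 remained outside these groups.

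The targeted gene Hdac3 read 10.14, 10.04, 10.20 and 10.04 on WT replicates 1 to 4 and 8.59, 8.59, 8.59 and 8.498 on the KO arrays (log2 intensity), so each array matched its label. The 11 cardiomyocyte markers lay at or above percentile 99.3 of mean level over the genes, as the tissue label says. The median intensity of the arrays was 54.1 to 56.5. WT replicate 2 stood apart in the genes studied here: of the 10 brightest collagens, 10 had their highest WT value on that array. Results that it changes are given with and without it. In whole-heart RNA, a change in the number of cells of a type and a change in RNA per cell cannot be told apart. Array brightness depends on the probes as well as the transcript, so levels are compared between arrays and not between genes. Differences are log2 values of KO over WT, from 4 arrays each, and a gene was called when its Benjamini-Hochberg adjusted p in limma, taken over all 19933 genes, was under 0.05.

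RefSeq promoter windows (GRCm38.p6) were found by symbol for 35 of the 44 genes. The 150 bases that precede the transcript start are shown for 4 of them: Col8a1 and Col28a1, which were called, and Col1a2 and Col3a1, fibrillar genes whose calls changed with WT replicate 2 and with the processing. Capitals mark matches, on either strand, to CCAAT (the CCAAT box), TATAAA (the TATA box), GGGCGG (the GC box), TGACTCA (the AP-1 site) and AGGTCA (the nuclear receptor half-site). No 2 matches overlap in these windows.
Col8a1, chr16:57754738-57754887, minus strand: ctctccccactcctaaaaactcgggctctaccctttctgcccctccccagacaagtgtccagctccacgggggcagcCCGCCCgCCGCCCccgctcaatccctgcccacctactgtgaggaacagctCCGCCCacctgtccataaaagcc
Col28a1, chr6:8192618-8192767, minus strand: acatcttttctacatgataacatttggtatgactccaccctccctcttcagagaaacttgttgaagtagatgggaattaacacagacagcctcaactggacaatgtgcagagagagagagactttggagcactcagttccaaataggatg
Col1a2, chr6:4505468-4505617, plus strand: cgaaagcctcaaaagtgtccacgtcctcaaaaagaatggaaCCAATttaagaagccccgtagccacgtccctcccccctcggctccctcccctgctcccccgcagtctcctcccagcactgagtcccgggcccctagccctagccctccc
Col3a1, chr1:45311388-45311537, plus strand: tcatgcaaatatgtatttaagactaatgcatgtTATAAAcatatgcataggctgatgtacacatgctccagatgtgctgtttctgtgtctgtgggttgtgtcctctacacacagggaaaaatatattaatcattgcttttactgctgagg
The Col8a1 window holds 3 GC boxes, which begin 73, 66 and 23 bases before the start. The Col1a2 window holds a CCAAT box that begins 109 bases before the start, the Col3a1 window a TATA box at 117 bases, and the Col28a1 window no match to any of the letters searched. A GC box stood in 19 of 38 collagen windows, against 28.6% of 32851 windows of this length over all genes, and a CCAAT box in 8 against 24.5%. TATAAA stood in 4 (7.57% of all windows), AGGTCA in 6 (8.58%) and TGACTCA in 1, that of Col6a1 (2.84%). A match describes the letters and is no evidence of binding. Col1a1, Col2a1, Col4a3, Col5a2, Col9a3, Col12a1, Col14a1, Col22a1 and Col26a1 had no entry.

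Across the 44 genes, 4 were higher in KO hearts and 0 were lower, beside 7.63% of all genes called higher and 9.52% called lower in limma. The share of collagens called higher, 9.09%, was thus close to the background. The 4 were Col8a1, Col14a1, Col12a1 and Col28a1, and none of them encodes a fibrillar or collagen IV chain. At an unadjusted p under 0.05 in limma the counts were 11 higher and 0 lower, beside 2564 higher and 3088 lower of all 19933 genes. Unadjusted counts of classes and lists given below are read beside these. The median difference of the 44 was 0.04, and -0.00 over all genes, with 36 collagens above 0 and 8 below. The median of the 44 was 0.09 without KO replicate 3 and 0.03 to 0.06 without any other array. By class, 0 of 11 fibrillar genes were called (4 higher and 0 lower at an unadjusted p under 0.05), 0 of 6 collagen IV genes (2 and 0), and 4 of 27 others. The class medians were 0.04, -0.00 and 0.06, and single arrays moved them. Leaving out KO replicate 4 gave a fibrillar median of -0.002 and leaving out KO replicate 3 one of 0.09, with 0.03 and 0.07 when WT replicates 3 and 1 were dropped. The collagen IV median was 0.06 without WT replicate 2 and between -0.02 and 0.02 without any other array. The median of the others was 0.10 and 0.03 when KO replicates 3 and 4 were left out in turn, and 0.09 when WT replicate 4 was. KO and WT arrays did not overlap for 6 collagens, all higher in KO, against 9.45% of all genes not overlapping in that direction. Without WT replicate 2 the count of collagens called higher was 9, beside 7.7% of all genes, and 4 of these were fibrillar.

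The comparison was repeated under 18 alternatives and at a stricter threshold, and the collagen counts given for them are read beside the share of all genes called higher in each. That share was 9.91% with array weights, 8.45% with quantile normalisation, 6.63% with median centring, 8.3% with robust variances that follow an intensity trend and 8.35% with an offset of 16. It was 10.8% with a filter on dim genes at the 25th percentile, 14.7% at the 50th, 7.61% with the mean of a gene's clusters, 7.55% with each cluster tested and 6.87% with the replicate block. Leaving out WT replicates 1, 3 and 4 gave 5.98%, 6.55% and 6.55%, and leaving out KO replicates 1 to 4 gave 5.55%, 5.67%, 6.34% and 7.76%. At an adjusted p under 0.01 it was 4.4%, and 2 collagens, Col8a1 and Col14a1, were called.

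**Figure D1:**
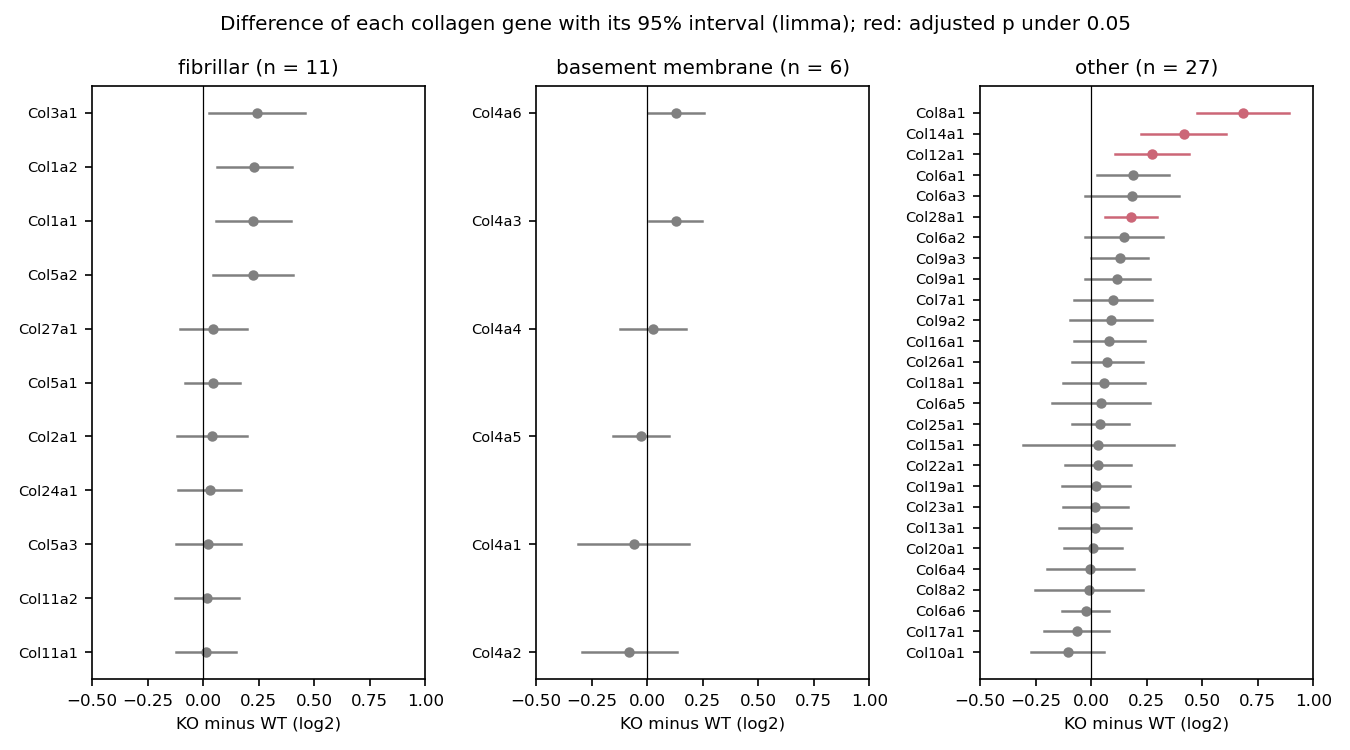
KO minus WT difference of each of the 44 collagen genes on the log2 scale (horizontal axis) with its 95% interval from limma, by class, with genes on the vertical axis. Red marks the 4 genes with an adjusted p under 0.05, Col8a1, Col14a1, Col12a1 and Col28a1, which lie in the panel of other collagens.

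Col8a1 encodes a short-chain collagen that forms hexagonal networks and is known from vessel walls and the cornea. It read 8.09, 8.51, 8.44 and 8.43 in WT hearts and 9.07, 9.19, 8.99 and 8.94 in KO hearts (replicates 1 to 4, log2 intensity). The groups were separate, and the lowest WT value was that of replicate 1. From a mean of 8.36 ± 0.19 to 9.05 ± 0.11 (SD, n = 4) it rose by 0.68 (SE 0.09, 95% interval 0.48 to 0.89, adjusted p = 0.000566, limma), or 1.61-fold. It had the largest difference among the 44 and was called in 18 of 18 alternatives, with differences of 0.59 to 0.73. Its partner chain Col8a2 was at 5.48 ± 0.14 in WT and 5.47 ± 0.22 in KO and differed by -0.01 (95% interval -0.25 to 0.23).

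Col14a1 encodes a fibril-associated collagen that binds to the surface of collagen I fibrils and, through decorin, limits their growth. Its WT values were 7.37, 7.78, 7.51 and 7.48 and its KO values 8.07, 7.95, 7.94 and 7.85. No KO value was below a WT value, although WT replicate 2 came within 0.1 of KO replicate 4. It rose by 0.42 (SE 0.09, 95% interval 0.22 to 0.61, adjusted p = 0.00691, limma), or 1.33-fold, and was called in 18 of 18 alternatives. Without WT replicate 2 the difference was 0.50.

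Col12a1, another fibril-associated collagen of type I fibrils, read 5.002, 4.985, 5.16 and 5.26 in WT and 5.27, 5.49, 5.38 and 5.36 in KO hearts. The groups did not overlap, but KO replicate 1 and WT replicate 4 were almost level. It rose by 0.27 (SE 0.07, adjusted p = 0.028, limma), or 1.21-fold, at percentile 37.5 of mean level, where signal is low. Col28a1, a collagen known around peripheral nerve and Schwann cells, read 4.92, 4.96, 4.98 and 5.03 in WT and 5.11, 5.19, 5.10 and 5.21 in KO hearts. It rose by 0.18 (SE 0.05, adjusted p = 0.0387, limma), or 1.13-fold, at percentile 34.6. Col12a1 was called in 11 of 17 alternatives and Col28a1 in 8 of 17, and without WT replicate 2 neither passed (0.24, adjusted p = 0.0667, and 0.18, adjusted p = 0.0688). Col12a1 also did not pass without WT replicate 1 or without KO replicate 2, 3 or 4. With 1 array left out, Col28a1 passed only without KO replicate 3 or WT replicate 4. Of 5 measured Schwann cell markers, 0 were higher and 1 was lower in KO hearts (2 and 1 at an unadjusted p under 0.05, limma), and the counts were 0 and 0 without WT replicate 2. Their summed intensity was 2273 to 2538 in WT and 2376 to 2966 in KO. Mean levels of these markers ran from 4.56 to 11.22 (log2), so the brightest marker weighs most in the sum. The part of these cells in the Col28a1 value was not tested.

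**Figure D2:**
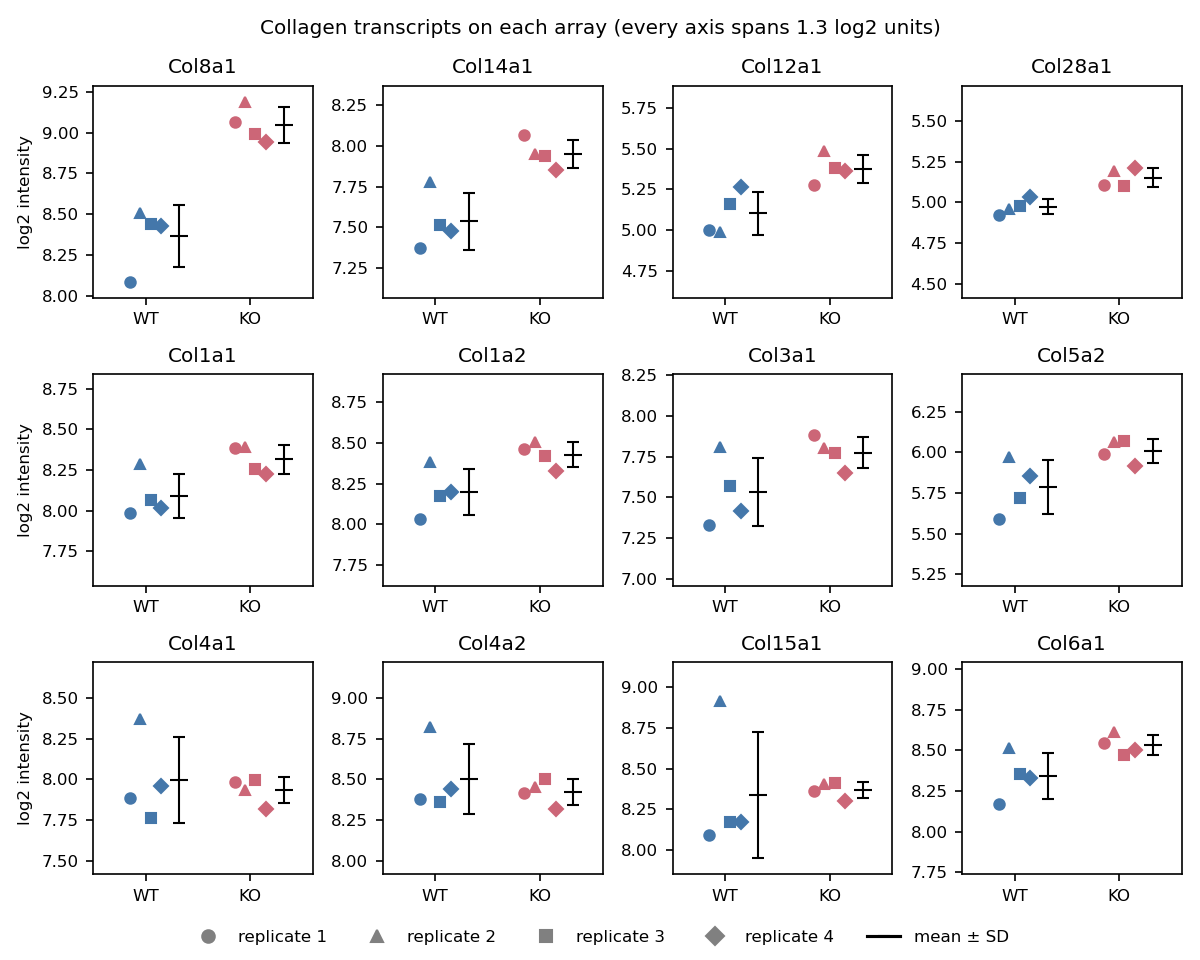
Log2 intensity (vertical axis, 1.3 log2 units in every panel) of 12 collagen genes on each WT (blue) and KO (red) array, with the replicate number as the symbol and the group mean ± SD (n = 4) in black. Col8a1 and Col14a1 are separate between groups, while WT replicate 2 (triangle) reaches the KO values of Col1a1, Col1a2, Col3a1, Col5a2 and Col6a1. It lies above every KO value of Col4a1, Col4a2 and Col15a1.

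Among fibrillar genes, the 4 that differed most from WT did so by nearly the same amount. Col1a1, a chain of type I collagen, read 7.99, 8.29, 8.06 and 8.02 in WT and 8.39, 8.39, 8.26 and 8.22 in KO hearts. WT replicate 2 lay above KO replicates 3 and 4, and the other WT values lay below every KO value. The difference was 0.23 (SE 0.08, 95% interval 0.06 to 0.39, adjusted p = 0.0692, limma), 1.17-fold. Its partner chain Col1a2 read 8.04, 8.38, 8.17 and 8.20 against 8.46, 8.51, 8.42 and 8.33, a difference of 0.23 (95% interval 0.06 to 0.40, adjusted p = 0.0632). Col3a1, the type III chain that forms mixed fibrils with type I, read 7.33, 7.81, 7.57 and 7.42 in WT and 7.88, 7.80, 7.77 and 7.65 in KO hearts. It differed by 0.24 (95% interval 0.03 to 0.46, adjusted p = 0.127). Col5a2, a chain of the type V collagen that starts fibrils, read 5.59, 5.97, 5.72 and 5.85 against 5.99, 6.07, 6.07 and 5.92, a difference of 0.22 (95% interval 0.04 to 0.41, adjusted p = 0.0903).

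None of these 4 passed with the 8 arrays, and in each the highest WT value was that of replicate 2. Without it Col1a1 differed by 0.29 (adjusted p = 0.0109), Col1a2 by 0.29 (0.0147), Col3a1 by 0.34 (0.0146) and Col5a2 by 0.29 (0.0249), all past the threshold. Leaving out any other array left all 4 above the threshold of 0.05. Col1a1 passed in 5 of 18 alternatives, Col1a2 in 7 of 18, Col3a1 in 3 of 18 and Col5a2 in 2 of 17. The 95% intervals with 8 arrays allowed at most 1.31-fold for Col1a1 and 1.37-fold for Col3a1.

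Col5a1, the other main type V chain, was flatter than Col5a2. It read 6.72, 6.89, 6.73 and 6.69 in WT and 6.79, 6.82, 6.82 and 6.77 in KO hearts and differed by 0.04 (95% interval -0.08 to 0.17, adjusted p = 0.71). Its WT replicate 2 was again the highest of the 8 values. The remaining fibrillar genes were Col5a3, the cartilage genes Col2a1, Col11a1 and Col11a2, and the minor fibrillar genes Col24a1 and Col27a1. Their differences lay between 0.01 (Col11a1) and 0.05 (Col27a1), and none passed with the 8 arrays or in an alternative. With the 8 arrays each of the 11 fibrillar differences was above 0. This rested on KO replicate 4: without it 6 of the 11, namely Col2a1, Col5a3, Col11a1, Col11a2, Col24a1 and Col27a1, were below 0. Without WT replicate 1 there were 2 below 0 and without WT replicate 2 there was 1. Col11a1 and Col11a2 were also below 0 with median centring and with array weights, and Col11a1 with quantile normalisation.

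Collagen IV showed no called gene. Col4a1 and Col4a2, the chains found in nearly every basement membrane, are neighbours on opposite strands, and the RefSeq starts used here lie 21 bases apart. Col4a1 read 7.89, 8.37, 7.76 and 7.96 in WT and 7.98, 7.94, 7.995 and 7.82 in KO hearts, a difference of -0.06 (95% interval -0.31 to 0.19, adjusted p = 0.796). Col4a2 read 8.38, 8.82, 8.36 and 8.44 against 8.42, 8.45, 8.499 and 8.32, a difference of -0.08 (95% interval -0.30 to 0.14, adjusted p = 0.676). In both genes WT replicate 2 was above every other array, and without it the differences changed sign, to 0.06 and 0.03, and did not pass. The intervals with 8 arrays leave room for a fall to 0.805-fold in Col4a1 and 0.815-fold in Col4a2, and for a rise to 1.14-fold and 1.10-fold.

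Col4a3, a chain of restricted basement membranes such as those of the kidney filter, read 5.84, 5.96, 5.99 and 5.87 in WT and 6.07, 6.06, 6.02 and 6.00 in KO hearts, with no overlap, and differed by 0.13 (adjusted p = 0.149). Col4a6 differed by 0.13 (adjusted p = 0.167), Col4a4 by 0.02 and Col4a5 by -0.03, and their groups overlapped. None of the 6 passed in any of the 18 alternatives that included it.

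The multiplexins Col15a1 and Col18a1 lie in the basement membrane zone and release fragments known to restrain vessel growth. Col15a1 read 8.09, 8.91, 8.17 and 8.17 in WT and 8.36, 8.40, 8.41 and 8.30 in KO hearts. WT replicate 2 was far above the rest, and the other 3 WT values were below every KO value. The difference was 0.03 with 8 arrays (95% interval -0.31 to 0.37, adjusted p = 0.93) and 0.22 without WT replicate 2 (adjusted p = 0.0209), where it passed. It fell below 0 when any other WT array was left out, to -0.05 without replicate 1. Col18a1 had the same outlying array, with 6.08, 6.41, 6.09 and 6.09 in WT and 6.34, 6.16, 6.15 and 6.24 in KO hearts, and differed by 0.06 (adjusted p = 0.733). Without WT replicate 2 it differed by 0.14 (adjusted p = 0.182).

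Collagen VI forms beaded filaments that tie cells to the surrounding matrix, with Col6a1, Col6a2 and Col6a3 as its common chains. Col6a1 read 8.17, 8.52, 8.36 and 8.33 in WT and 8.55, 8.61, 8.47 and 8.504 in KO hearts and differed by 0.19 (95% interval 0.03 to 0.35, adjusted p = 0.112). Col6a2 read 7.79, 8.11, 7.86 and 7.96 against 8.18, 8.14, 8.04 and 7.95, a difference of 0.15 (adjusted p = 0.263). Col6a3 read 7.09, 7.60, 7.31 and 7.21 against 7.47, 7.52, 7.42 and 7.52, a difference of 0.18 (adjusted p = 0.254). The WT range reached into the KO range through replicate 2 in each, and in Col6a2 also through replicate 4, just above KO replicate 4. Without WT replicate 2 Col6a1 (0.25, adjusted p = 0.0287) and Col6a3 (0.28, adjusted p = 0.0155) passed. Col6a2 passed only with array weights (0.21, adjusted p = 0.049).

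The alternative chains Col6a4, Col6a5 and Col6a6, which stand next to each other in the genome, differed by -0.00, 0.04 and -0.02. A dimmer cluster of Col6a6 differed by -0.24 (adjusted p = 0.0873), and its brighter cluster by -0.02, and neither passed. The difference between the clusters was not tested. The dimmer cluster of Col6a5 differed by 0.10.

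Among the remaining fibril-associated collagens, Col9a3, a chain of cartilage collagen IX, did not overlap between groups, at 6.64, 6.53, 6.63 and 6.61 in WT and 6.82, 6.65, 6.67 and 6.79 in KO hearts. It differed by 0.13 (adjusted p = 0.177). Col9a1 (0.12), Col9a2 (0.09), Col16a1 (0.08), Col19a1 (0.02), Col20a1 (0.01) and Col22a1 (0.03) did not pass either. With Col12a1 and Col14a1 the group has 9 genes, of which 2 were called. With the 8 arrays all 9 differences were above 0, but without KO replicate 4 those of Col19a1, Col20a1 and Col22a1 were below 0, and without WT replicate 1 or 2 those of Col19a1 and Col20a1. Both were also below 0 with array weights and with quantile normalisation, and Col20a1 with median centring. The anchoring fibril gene Col7a1 differed by 0.10, and Col26a1, a collagen outside the main groups, by 0.07. The membrane-spanning collagens Col13a1, Col17a1, Col23a1 and Col25a1 had differences from -0.07 (Col17a1) to 0.04 (Col25a1). Col10a1, which marks enlarged cartilage cells and was the dimmest member by mean level, had the lowest difference of the 44, -0.11 (adjusted p = 0.418). None of these genes passed in an alternative.

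Partner chains and neighbouring genes were set side by side. Of the 44 genes, 8 pairs are adjacent in the order of protein-coding genes. Col3a1 and Col5a2 (0.24 and 0.22), Col6a1 and Col6a2 (0.19 and 0.15) and Col4a1 and Col4a2 (-0.06 and -0.08) are 3 of them. Among the others, Col4a6 and Col4a5 had opposite signs (0.13 and -0.03), as did Col6a6 and Col6a5 (-0.02 and 0.04), and Col6a4 beside Col6a5 had -0.00. Col4a3 and Col4a4 had 0.13 and 0.02, and Col9a1 and Col19a1 had 0.12 and 0.02. Col8a1 and Col8a2, which are not adjacent, had 0.68 and -0.01. Col5a1 and Col5a2, also apart, had 0.04 and 0.22. These are descriptions, and differences between partner chains were not tested.

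The collagens called were read against genes of like level. In the brightest of 4 equal groups of genes by mean level lay 10 collagens, of which 2 (Col8a1 and Col14a1) were called higher and 0 lower (12.9% of all genes in that group were called higher and 20.1% lower). Their median difference was 0.21, against -0.03 for all genes there. The groups just below it and next in order held 17 collagens each, with medians of 0.04 and 0.03, and 0 and 2 were called higher, beside 10.4% and 5.86% of all genes there. No collagen lay in the dimmest group.

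WT replicate 2 was followed through the cell type markers. Over all genes it also moved with level. In the brightest of the 4 groups by mean level, its median relative to the WT mean of each gene was 0.03 for all genes. The 10 collagens there stood at 0.22. All genes stood at 0.04 in the next group and at -0.06 in the dimmest, and the 17 collagens of that next group at -0.03. The mean over collagen IV genes, relative to the WT mean of each gene, was 0.17 on that array, against -0.07 to -0.03 on the other WT arrays and -0.01 to 0.06 on the KO arrays. Fibrillar genes stood at 0.08 on it and at 0.04 to 0.14 on the KO arrays. The 10 pericyte and smooth muscle markers averaged 0.28 there, against -0.17 to -0.04 on the other WT arrays and -0.10 to -0.09 in KO, and the 13 endothelial markers 0.16 against -0.11 to -0.01 and -0.03 to 0.07. Endothelial markers had 0 genes called of 13 (1 higher and 0 lower at an unadjusted p under 0.05, limma), with a summed intensity of 9372 to 11301 in WT and 9951 to 10482 in KO, and without WT replicate 2 they had 1 higher and 0 lower. Pericyte and smooth muscle markers had 0 higher and 1 lower of 10, with sums of 8954 to 11652 and 9463 to 10352, and 1 higher and 1 lower without that array. The part of vessel cells in the collagen values was not tested.

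**Figure D3:**
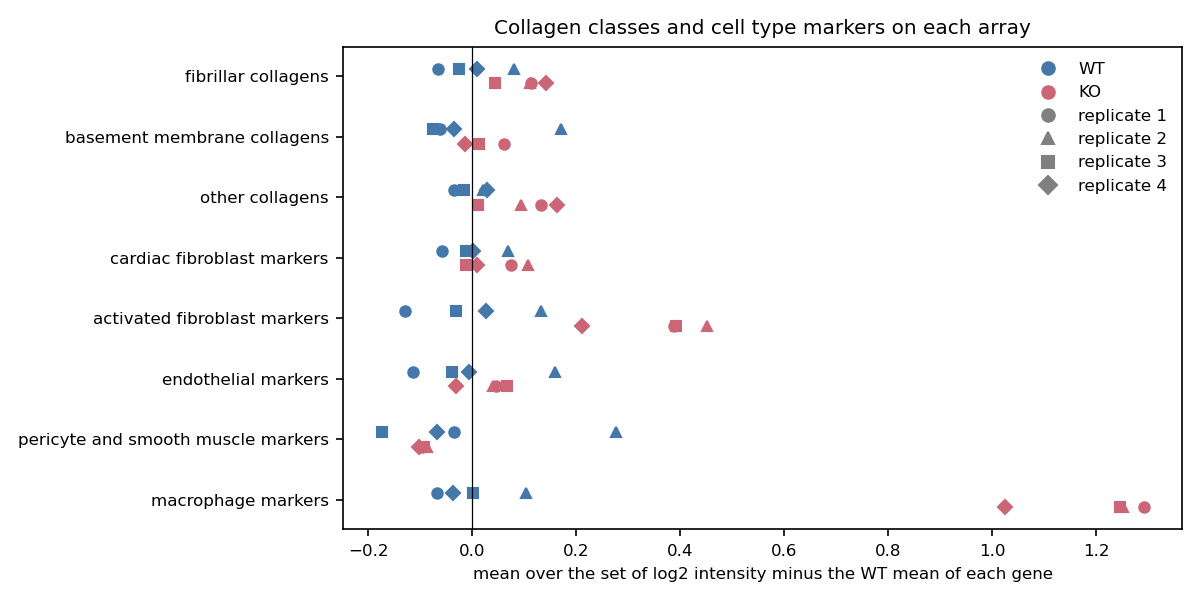
Mean over each gene set of log2 intensity minus the WT mean of each gene (horizontal axis), for the 3 collagen classes and 5 marker lists, on each WT (blue) and KO (red) array, with the replicate number as the symbol. WT replicate 2 (triangle) is the highest WT array in 7 of the 8 sets, and the macrophage markers separate the groups most widely.

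Fibroblast and macrophage markers were read beside the fibrillar genes. Of 15 cardiac fibroblast markers, 3 were higher and 1 was lower in KO hearts, with a median of 0.01 and a summed intensity of 14545 to 15338 in WT and 14600 to 16449 in KO. Counts of this and the other marker lists are read beside 7.63% of all genes called higher and 9.52% called lower. Lum, Dcn, Dpt and Fbln1 of this list, and Postn of the activated fibroblast list, are counted again among the proteins that coat fibrils. Ddr2 and Lamc3 of this list are counted again among the collagen receptors and the laminins. Of the activated fibroblast list, Acta2 and Tagln are also pericyte and smooth muscle markers, Comp is also a chondrocyte marker and Lox also a cross-linking gene. These lists are thus not separate readings. Of 9 markers of activated fibroblasts, 3 were higher and 0 lower (4 and 0 at an unadjusted p under 0.05, limma), among them the matrix genes Tnc (1.02) and Cilp (0.91), chosen after their values were seen. Without WT replicate 2 the counts were 4 and 0. The median was 0.18 and the sums 2698 to 4120 in WT and 3945 to 4915 in KO. Mean levels in this list ran from 5.19 to 11.30 (log2), so its brightest marker weighs most in the sums. Macrophage markers were higher for 13 of 14, with sums of 3513 to 4005 and 8022 to 10253. Chondrocyte markers, which cover the cells that make Col2a1, Col9a1 and Col11a1, had 0 higher and 1 lower of 7 (1 and 1 at an unadjusted p under 0.05), and 0 and 0 without WT replicate 2. The part of these cells in the collagen values was not tested.

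**Figure D4:**
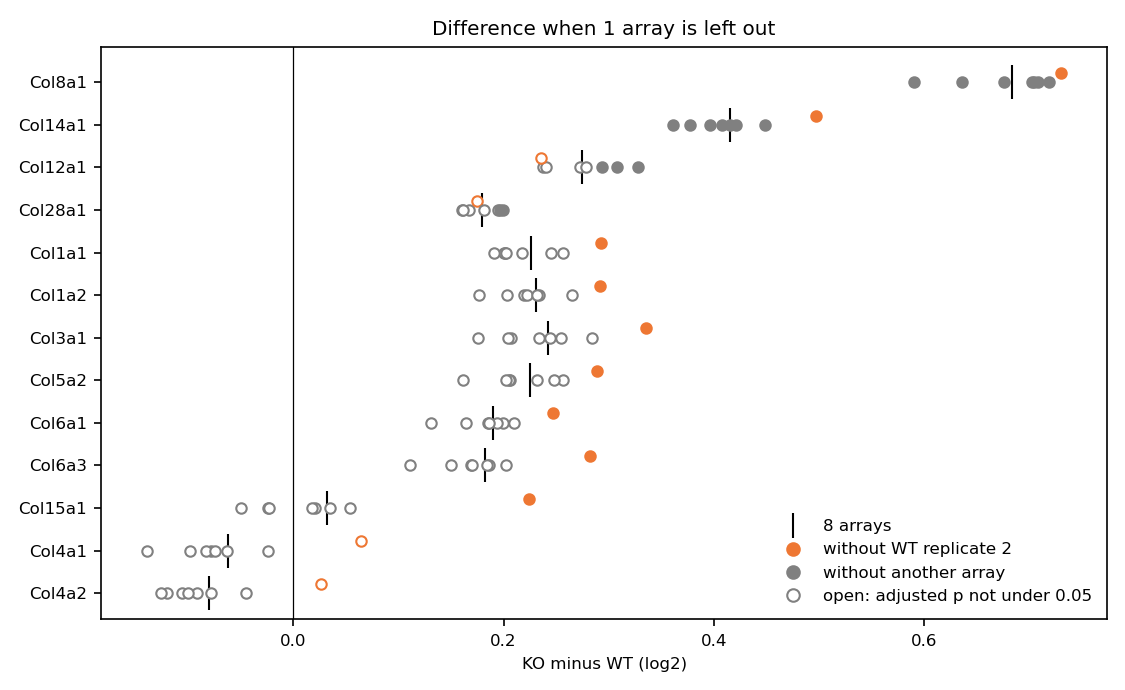
KO minus WT difference (log2, horizontal axis) of 13 collagen genes with 8 arrays (black bar) and with each array left out in turn (points, filled where the adjusted p in limma was under 0.05). Without WT replicate 2 (orange) Col1a1, Col1a2, Col3a1, Col5a2, Col6a1, Col6a3 and Col15a1 passed, which they did not when any other array was left out. Col12a1 and Col28a1 did not pass without WT replicate 2, nor without most of the other arrays.

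Genes that fold and modify collagen chains were taken as a list of 20 measured genes, of which 4 were higher and 1 lower, or 4 and 2 without WT replicate 2. The counts of this list and of those that follow are read beside 7.63% of all genes called higher and 9.52% called lower. P4hb, which is a subunit of collagen prolyl 4-hydroxylase and also a general protein disulfide isomerase, went from 9.66 ± 0.06 to 10.29 ± 0.03 (SD, n = 4), a rise of 0.63 (SE 0.05) with an adjusted p of 1.83e-05 in limma. P4ha1, a catalytic subunit of the same hydroxylase, read 8.77, 8.45, 8.77 and 8.97 in WT and 9.15, 9.09, 9.37 and 9.25 in KO hearts and rose by 0.47 (adjusted p = 0.00945). P3h2, a prolyl 3-hydroxylase that acts on collagen IV among others, rose by 0.43 (adjusted p = 0.00049), from 7.23 ± 0.07 to 7.66 ± 0.07. Pdia3, a disulfide isomerase of glycoproteins in general, rose by 0.36 (adjusted p = 0.00744). Crtap, a partner of prolyl 3-hydroxylase 1, fell by 0.32 (adjusted p = 0.0272), and was chosen after its values were seen. So was the collagen chaperone gene Serpinh1, which differed by -0.09 (adjusted p = 0.332).

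Among 13 genes of procollagen processing and cross-linking, 1 was higher and 1 lower. Adamts3, which removes the N-terminal propeptide, rose by 0.28 (adjusted p = 0.011, limma). With its clusters averaged it did not pass (0.12, adjusted p = 0.195). Tll2, of the family that removes the C-terminal propeptide, fell by 0.35 (adjusted p = 0.00225). The cross-linking enzyme gene Lox, chosen after its values were seen, differed by 0.05 (adjusted p = 0.808).

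Proteins that coat fibrils moved both ways. Of 15 genes, 3 were higher and 2 lower, with a median of 0.11. The keratan sulfate proteoglycan gene Lum read 8.59, 8.86, 8.81 and 8.84 in WT and 9.17, 9.15, 9.09 and 9.20 in KO hearts and rose by 0.38 (adjusted p = 0.00278, limma). Postn, a matrix protein gene of activated fibroblasts, rose by 0.64 (adjusted p = 0.00364). Ogn, a related small proteoglycan gene, read 9.92, 9.85, 9.73 and 9.74 against 9.27, 9.25, 9.36 and 9.28 and fell by 0.52 (adjusted p = 0.000191), and the fibulin gene Fbln1 fell by 0.49 (adjusted p = 0.000657). The groups did not overlap in these 4 genes, which were named for their small p. Among all 19933 genes, 4485 did not overlap in either direction.

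Laminins and other partners of collagen IV in basement membranes had 1 gene higher and 5 lower of 18, with a median of -0.01, in hearts where Col4a1 and Col4a2 were not called. Lama5, a laminin alpha chain gene, went from 8.58 ± 0.08 to 8.05 ± 0.09 (SD, n = 4) and fell by 0.52 (adjusted p = 0.000262, limma). The calcium-binding matrix protein gene Smoc2 fell by 0.48 (adjusted p = 0.00104) and the laminin beta chain gene Lamb3 by 0.41 (adjusted p = 0.00271). Lamb2, a laminin beta chain gene prominent in muscle, rose by 0.30 (adjusted p = 0.00312), from 10.13 ± 0.06 to 10.43 ± 0.06. Without WT replicate 2 the list had 2 higher and 5 lower.

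Of 11 collagen receptor genes, 1 was higher and 0 lower (2 and 0 at an unadjusted p under 0.05, limma). It was Lair1, an inhibitory receptor of leukocytes, which rose by 0.84 (adjusted p = 0.000548) in hearts where 13 of 14 macrophage markers were higher, a relation that was not tested. Ddr2, the fibrillar collagen receptor of fibroblasts, differed by -0.07 (adjusted p = 0.582) and was chosen after its values were seen. Of 10 genes of collagen-degrading proteases, 1 was higher and 0 lower (1 and 0 at an unadjusted p under 0.05): Mmp13, a collagenase gene, read 5.15, 5.47, 5.18 and 5.12 in WT and 5.52, 5.45, 5.47 and 5.60 in KO hearts and rose by 0.28 (adjusted p = 0.0355), with overlap through WT replicate 2. Its signal was low and its adjusted p close to the threshold.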

How the data were processed

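RNA from 8 hearts (4 WT, 4 KO) was read on 1 array each. The range of the deposited values, 27541 transcript clusters per array, is that of linear intensities. Partek and RMA are named per the submitters' processing notes, with no version or role. Scanner files, detection calls and hybridisation batches were not analysed here. Intensities were converted to log2 without further scaling or filter on dim genes. A symbol of their own had 21631 clusters, while 1317 had several and 4593 had none. The brightest cluster was kept, which left 19933 genes. Groups were compared with limma 3.58.1 (R 4.3.3), in a two-sided moderated test on 6 residual degrees of freedom. On simulated data of 19933 genes the test recovered 95% of 1.5-fold and 98% of 2-fold changes, with 7 false calls among 200. Each size was given to 100 genes, and noise was drawn independently for each gene. In the real data 3418 genes were called, and single arrays deviated across many genes together. These rates therefore need not hold for the real data. Smaller changes, such as the differences of the fibrillar genes, were not simulated, so their recovery is not known. The number of arrays limits precision. Members, classes and lists were chosen with earlier results of these data known. Named were called collagens, the 2 of each class with the smallest p, a fixed set of 14 heart collagens, the 5 brightest and 5 dimmest, up to 4 called genes per list and Hdac3. Other genes are said to be chosen after their values were seen. There were 18 alternatives: other scalings, an offset of 16, dim filters, variance models, array weights, other cluster handling, the replicate block and leaving out each of 8 arrays. Python 3.11.15 with matplotlib 3.10.9 made the figures.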

Additional observations from a re-analysis of the deposited data

Results flagged for a closer look

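Of the named genes, 8 had an array that stood far from the other 3 of its group, with a gap to the nearest, as a share of the group's range, above Dixon's 95% critical value for 4 samples. Chance gives about 1 in 20 groups, and 78 groups of 4 were examined. WT replicate 2 was the array in 5 of them: Col4a2 (8.82, against 8.36 to 8.44 on the other WT arrays), Col5a1 (6.887, against 6.69 to 6.73), Col15a1 (8.913, against 8.09 to 8.17), Col18a1 (6.408, against 6.08 to 6.09) and Mmp13 (5.474, against 5.12 to 5.18). Lum was low on WT replicate 1 (8.588, against 8.81 to 8.86). On KO replicate 4, Postn was low (9.665, against 10.13 to 10.21) and so was Hdac3 (8.498, against 8.59 on the others).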

How the results depend on the processing

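Col8a1 and Col14a1 were called in each of the 18 alternatives. Of the named genes that are not collagens, 2 lost their call in some alternatives, with 9 such values between them. Adamts3 was 1 of these genes. The count of collagens called higher, 4 with the 8 arrays, was 9 with array weights, 7 with quantile normalisation and 2 at an adjusted p under 0.01, and ranged from 2 to 9 when 1 array was left out. It was 2 without WT replicate 1, KO replicate 2 or KO replicate 4, and 9 without WT replicate 2. Called fibrillar genes, 0 with the 8 arrays, were 4 with array weights, 3 with quantile normalisation, 2 with an intensity trend and robust variances, 2 with the filter at the 50th percentile, 1 with the filter at the 25th and 1 with an offset of 16, and ranged from 0 to 4 when 1 array was left out. Called genes of the other class, 4 with the 8 arrays, were 2 with the filter at the 50th percentile, which removed Col12a1 and Col28a1 from the test, and ranged from 2 to 5 when 1 array was left out. Counting Col15a1 and Col18a1 with collagen IV left 0 called. Signs of differences that did not pass changed for 6 of the named collagens: Col4a1 was 0.019 and Col19a1 -0.012 with array weights, and Col19a1 was -0.00024 with quantile normalisation. With 1 array left out the ranges were -0.14 to 0.064 for Col4a1, -0.13 to 0.026 for Col4a2, -0.050 to 0.22 for Col15a1, -0.013 to 0.12 for Col6a5, -0.081 to 0.066 for Col6a4 and -0.022 to 0.058 for Col19a1. The cause was not tested. Same-numbered arrays did not deviate together (correlations -0.04 to 0.09). No pairing by number was seen, but deviations from means of 4 arrays cannot exclude a weak one. With the replicate block 3095 of all genes and 3 collagens were called, and Col28a1 (adjusted p = 0.0633) was not. Median centring moved the split of calls from 44.5% to 37.3% higher and the median of the 44 from 0.04 to 0.02. Dim collagens have no detection call here, so low signal limits what a difference near 0 shows.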

Other observations

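Outside the brightest group by mean level, collagens ran high on KO replicate 4. KO replicate 4 held the highest KO value for 22 of the 44 collagens and KO replicate 3 the lowest for 22. With genes in 4 equal groups by mean level, in the group next to the brightest the median of 17 collagens, relative to the WT mean of each gene, was 0.16 on KO replicate 4 and -0.03 on KO replicate 3, while all genes of that group stood at -0.04 and -0.03. In the group below it the 17 collagens stood at 0.14 and -0.05 and all genes at 0.08 and -0.05. On KO replicate 3 the collagens of both groups were thus close to all genes. KO replicate 1 also ran high, at 0.09 for the collagens of each group, against -0.01 and 0.02 for all genes. In the brightest group KO replicate 4 was at 0.12, the lowest KO array, for 10 collagens. All genes of that group were also lowest on KO replicate 4 among the KO arrays, at -0.07, against -0.02 on each other KO array.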
